A study of Homo sapiens with 6 samples.

Results

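The genes of the mitochondrial respiratory chain and of the mitochondrial ribosome were described here in HL-60 cells, an established human line from a promyelocytic leukaemia. They were chosen by gene symbol: the NDUF genes of complex I, SDHA to SDHD of complex II, the UQCR genes of complex III, COX4 to COX8 of complex IV, the ATP5 genes of complex V, and the MRPL and MRPS genes of the large and small ribosomal subunit. NDUFA4, named like the genes of complex I, was counted with complex IV. The rule took 166 of 18086 symbols present in at least 1 of the 4 peak lists. Of these, 155 were counted as subunit genes by fixed lists of symbols. The other 11 are symbols that share the name pattern, namely 4 pseudogenes, 4 antisense RNAs, 2 read-through transcripts and the paralogue NDUFA4L2.

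The respiratory chain passes electrons from NADH and succinate through complexes I to IV to oxygen and pumps protons across the inner mitochondrial membrane. Complex V, the ATP synthase, uses the returning protons to make ATP. A few subunits are encoded by mitochondrial DNA and are made by the mitochondrial ribosome, whereas every gene described here is nuclear and has a nuclear promoter. Most of these genes are expressed in nearly all cell types, and a few complex IV subunits also exist as isoforms of muscle, testis or lung.

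Chromatin immunoprecipitation followed by sequencing was done in JMJD3 KO cells and in parental cells. There was 1 library per genotype for H3K4me3, a histone mark of active promoters, and 1 for H3K27me3, a mark of Polycomb repression. JMJD3, the product of KDM6B, is a demethylase of the H3K27me3 mark. The design sets the places of both marks in the knockout against those in the parental line, and 1 input library of each genotype was not analysed here.

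Both groups are the same line, labelled as myeloblast, and no treatment is named for either. The route to the knockout, and whether it is 1 clone, are not stated in the labels. The H3K27me3 libraries carry H3K27me3 in their titles, while their antibody label names H3K4me3 with another catalogue number; the title was followed here. The title of the knockout H3K4me3 library reads K3K4me3 and was taken as H3K4me3. With 1 library per group there is no replicate spread, so every difference below has no replicate check and no test, and intervals of shares are Wilson 95% intervals for counting error only.

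The files are lists of called peaks with no read counts and no peak heights, so the depth of the libraries is unknown. The knockout H3K4me3 list was shorter, with 24943 peaks over 8.29 Mb, against 33470 peaks over 17.5 Mb in the parental list. The H3K27me3 lists held 3234 peaks over 4.17 Mb in JMJD3 KO cells and 3578 peaks over 4.22 Mb in parental cells. Of 8 haematopoietic and granulocyte genes, 7 had promoter H3K4me3 in both genotypes, among them SPI1, CEBPE and MPO, whereas ELANE, which encodes neutrophil elastase, had none in either. Of the genes of other lineages, ALB of liver, KRT5 of epidermis and GFAP of glia had no H3K4me3 promoter peak in either, and MYH6, CD3E and HBB had no line in any file.

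A gene was called marked when a peak centre lay at most 5 kb from a transcription start site (TSS) of the gene, or when a TSS fell inside a peak. Almost all of the respiratory chain and ribosome genes were marked by H3K4me3 in both genotypes. In JMJD3 KO cells 155 of 166 were marked (93.4%, interval 88.5 to 96.3%), against 159 of 166 in parental cells (95.8%, interval 91.6 to 97.9%). Over all gene symbols the shares were 62.9% in JMJD3 KO cells and 71.3% in parental cells. Of the 155 subunit genes, 148 were marked in JMJD3 KO cells and 151 in parental cells.

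Every gene of the group that was marked in the knockout list was also marked in the parental list. No gene was marked in the knockout list only, where 1.57% of all symbols marked in the knockout list were. Of the 159 genes marked in parental cells, 4 were unmarked in JMJD3 KO cells (2.52%, interval 0.983 to 6.29%), against 13.2% of all symbols. These 4 were NDUFA8, an accessory subunit of complex I, MRPL11, a protein of the large ribosomal subunit, MRPS36, and the pseudogene MRPL45P2. The count depended on the promoter rule, and so did that of all symbols. It was 12 genes (7.55%, against 16.4% of all symbols) with a window of 1 kb, 7 (4.29%, against 13.5%) with 10 kb and 8 (5.19%, against 16.8%) with each peak given to its nearest gene only. With peaks of at least 300 bp only it was 35 (22.4%, against 30.3%), and with spanning peaks only it was 12 of 15 (80%, against 72.2%).

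The 4 lost promoters had narrow parental peaks. NDUFA8 had no peak in JMJD3 KO cells and a single peak of 655 bp in parental cells at chr9:124921394-124922048 (hg19), whose centre lay 378 bp from its TSS. MRPL11 had no knockout peak and a parental peak of 560 bp at chr11:66205665-66206224, centred 375 bp from its TSS. MRPS36 had no knockout peak and parental peaks of 334 and 340 bp, one on each side of its TSS at chr5:68513181-68513514 and chr5:68513650-68513989. MRPS36 was first described as a ribosomal protein, and RefSeq now lists the gene as KGD4, a subunit of the 2-oxoglutarate dehydrogenase complex. MRPL45P2 had no knockout peak and a parental peak of 216 bp. For comparison, the genes of the group that were marked in both lists had parental widths between 484 and 4061 bp.

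The RefSeq promoters of NDUFA8 and MRPL11 are shown because they differ in composition although both peaks were called in parental cells only. Each runs from 250 bases before to 50 bases after the start in GRCh38.p14, a build that was used for sequence only and not joined to the hg19 peaks by position. NDUFA8 lies at chr9:122159730-122160029 and MRPL11 at chr11:66438799-66439098, both on the minus strand. Capitals mark matches to 3 motifs on either strand: GCGCANGCG for NRF1, CCGGAAG for the ETS factors that include GABP, and AAGATGGCG for YY1.
NDUFA8: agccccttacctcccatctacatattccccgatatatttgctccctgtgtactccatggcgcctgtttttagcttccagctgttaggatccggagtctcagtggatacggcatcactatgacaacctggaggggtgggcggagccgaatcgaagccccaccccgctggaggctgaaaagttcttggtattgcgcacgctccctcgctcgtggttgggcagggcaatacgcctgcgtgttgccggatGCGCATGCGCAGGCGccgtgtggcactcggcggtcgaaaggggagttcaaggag
MRPL11: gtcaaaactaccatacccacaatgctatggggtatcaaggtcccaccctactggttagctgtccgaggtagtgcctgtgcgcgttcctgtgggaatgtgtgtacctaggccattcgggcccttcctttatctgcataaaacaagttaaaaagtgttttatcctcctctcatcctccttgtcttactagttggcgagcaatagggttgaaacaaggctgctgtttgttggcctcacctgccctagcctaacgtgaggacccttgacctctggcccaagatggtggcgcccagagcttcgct
The NDUFA8 promoter had 59.0% G or C, 22 CpG dinucleotides and 3 overlapping NRF1 matches in its capitals. The MRPL11 promoter had 51.7% G or C, 8 CpG dinucleotides and no match to any of the 3 motifs.

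Another 7 genes were unmarked in both genotypes. Among them were 3 tissue-restricted isoforms of complex IV: COX6B2 and COX8C, known from testis, and COX7A1, known from heart and skeletal muscle. Their ubiquitous counterparts COX6B1, COX8A and COX7A2 were marked in both lists, as were COX4I1, COX6A1 and COX7B. So 6 of 6 ubiquitous isoforms were marked, against 62.9% of all symbols in JMJD3 KO cells and 71.3% in parental cells. This depended on the promoter rule. In JMJD3 KO cells COX7B and COX8A were unmarked with a window of 1 kb, and COX7B also with the nearest gene only. COX4I1, COX6B1 and COX7A2 were unmarked there with peaks of at least 300 bp. Of 6 listed tissue-restricted isoforms, COX4I2, COX6A2 and COX7B2 had no line in any file, so 0 of the 3 that had a line were marked. The other 4 unmarked symbols were ATP5L2, ATP5EP2, UQCRBP1 and MRPL23-AS1.

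The promoters that stayed marked had narrower peaks in JMJD3 KO cells. For each gene the widths of its distinct promoter peaks were summed. The median summed width over the 155 genes marked in both lists was 849 bp in JMJD3 KO cells and 1658 bp in parental cells. Over all 11190 symbols marked in both lists the medians were 820.5 bp in JMJD3 KO cells and 1708.5 bp in parental cells. The median log2 width ratio, knockout over parental, was -0.89 for the group (quartiles -1.38 and -0.57) and -1.01 for all symbols (quartiles -1.49 and -0.61). The counting interval of the group's median ran from -1.12 to -0.78. It counts genes as independent although some share peaks. It does not measure the spread between libraries and is no test against all symbols. Width is how far the called peaks extend, which is not the amount of the mark.

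The count of strongly narrowed genes was near that of all genes. The knockout width was at most 50% of the parental width in 73 of 155 genes (47.1%, against 50.6% of all symbols) and at most 25% in 19 genes (12.3%, against 11.5%). The knockout width exceeded the parental width in 6 genes (3.87%, against 4.05%). Cytosolic ribosomal protein genes, a set of similarly ubiquitous genes, had wider peaks at 1596.5 bp in JMJD3 KO cells and 3278 bp in parental cells, with a median log2 ratio of -0.99.

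**Figure D1:**
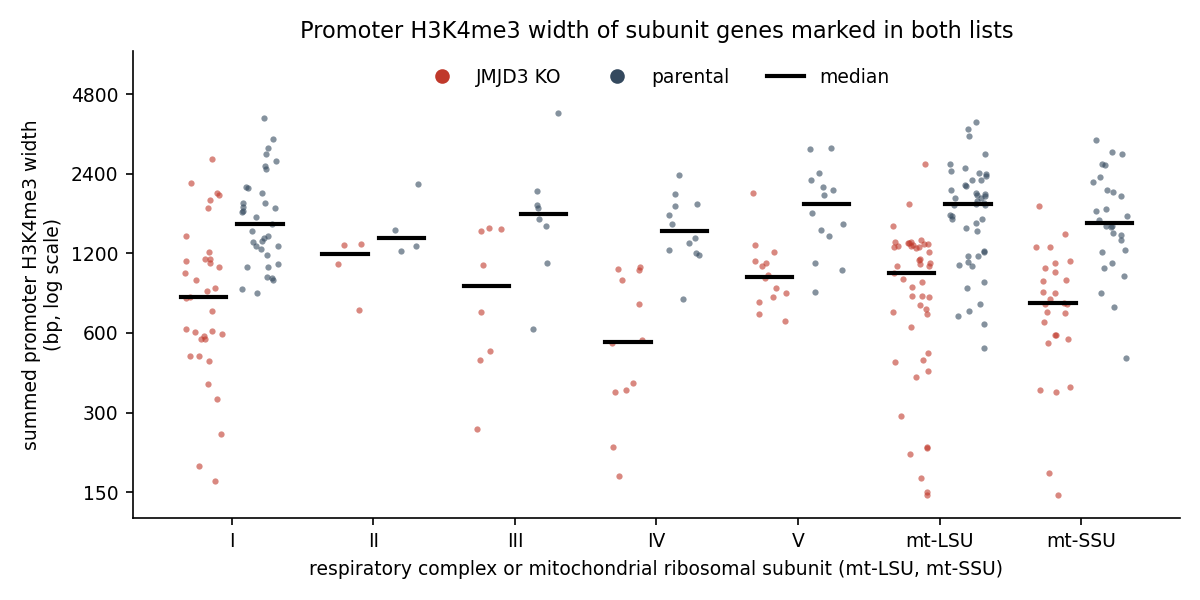
Summed promoter H3K4me3 width in bp, on a log scale, of each subunit gene marked in both lists, by complex and ribosomal subunit. Each point is a gene, red for JMJD3 KO and dark blue for parental, and black bars are medians; the knockout median is below the parental median in all 7 groups.

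Widths were lower in all 7 groups of subunits, as the plot of widths by complex shows. In complex I, which takes electrons from NADH, the median summed width was 820 bp in JMJD3 KO cells and 1552 bp in parental cells, over 35 genes. Complex II, the succinate dehydrogenase that also serves the citric acid cycle, had 1190 bp in JMJD3 KO cells and 1376 bp in parental cells, over 4 genes. Complex III, which passes electrons from ubiquinol to cytochrome c, had 900.5 bp in JMJD3 KO cells and 1697 bp in parental cells, over 8 genes. Complex IV, the cytochrome c oxidase, had 555.5 bp in JMJD3 KO cells and 1455.5 bp in parental cells, over 12 genes. These were the narrowest knockout median of the 7 groups and the next to narrowest parental median. Complex V had 979.5 bp in JMJD3 KO cells and 1849.5 bp in parental cells, over 14 genes. The large ribosomal subunit had 1008 bp in JMJD3 KO cells and 1850 bp in parental cells, over 47 genes, and the small subunit 777.5 bp in JMJD3 KO cells and 1563.5 bp in parental cells, over 28 genes.

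The median log2 ratio was -0.81 for complex I, -0.60 for complex II, -1.18 for complex III, -1.16 for complex IV and -0.81 for complex V. It was -0.89 for the large and -0.88 for the small ribosomal subunit. These medians lay within the quartiles of all symbols, except that of complex II, which rests on 4 genes and lay just above the upper quartile.

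**Figure D2:**
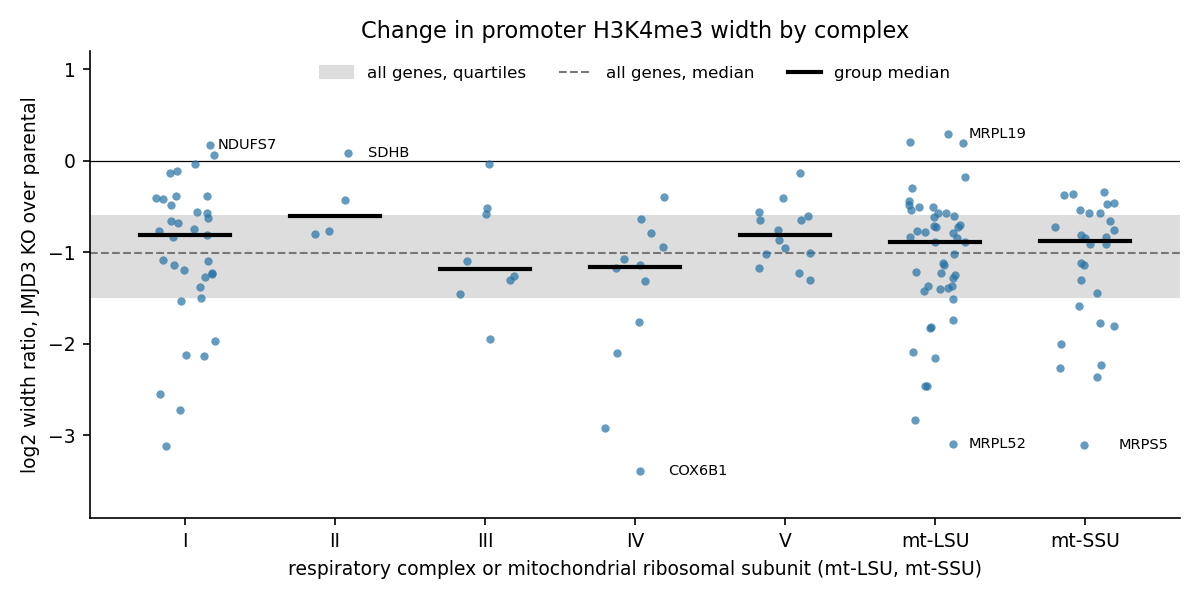
log2 ratio of summed promoter H3K4me3 width, JMJD3 KO over parental, of each subunit gene marked in both lists, by complex and ribosomal subunit. Points are genes, black bars are group medians, the grey band holds the quartiles of all symbols and the dashed line their median of -1.01; most points lie below 0, and COX6B1 is the lowest at -3.39.

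In complex I, NDUFV2, a core subunit of the NADH-oxidising module, was the widest in JMJD3 KO cells, with 2726 bp against 2993 bp in parental cells (log2 ratio -0.13). NDUFA13, an accessory subunit also known as GRIM19, was the narrowest in JMJD3 KO cells, with 165 bp against 965 bp in parental cells.

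NDUFS7, a core subunit which carries an iron-sulphur cluster, had the highest ratio of complex I. It had 1 peak of 1103 bp in JMJD3 KO cells at chr19:1384004-1385106 and 1 peak of 979 bp in parental cells at chr19:1383953-1384931 (log2 ratio 0.17), and the peaks shared 928 bp. NDUFB3, an accessory subunit, was also wider in JMJD3 KO cells, with 2211 bp against 2116 bp in parental cells (log2 ratio 0.06), but the difference was -155 bp with each peak given to its nearest gene only. The median log2 ratio of -1.10 over the 7 core subunits of complex I compares with -0.79 for the 28 accessory ones.

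In complex II, SDHB, the iron-sulphur subunit, was the gene with the highest ratio. It had 1 peak of 1291 bp in JMJD3 KO cells at chr1:17379177-17380467, against 1220 bp in parental cells (log2 ratio 0.08), and the difference was -86 bp with a window of 10 kb. The parental width was made of a peak of 1013 bp on the same side at chr1:17379534-17380546 and one of 207 bp on the other side of the TSS at chr1:17380810-17381016. The smaller parental peak had no knockout counterpart, while the larger overlapped the knockout peak by 934 bp. SDHD, a membrane anchor, had 1296 bp in JMJD3 KO cells and 2202 bp in parental cells. SDHC, the other anchor, had 732 bp in JMJD3 KO cells and 1280 bp in parental cells (log2 ratio -0.81), the lowest ratio of the 4 genes. SDHA, the flavoprotein subunit, had 1089 bp in JMJD3 KO cells and 1472 bp in parental cells (log2 ratio -0.43).

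The promoters of SDHB and NDUFS7 are shown as those of the core subunits that were wider in JMJD3 KO cells. They lie in GRCh38.p14 at chr1:17053983-17054282 on the minus strand and chr19:1383657-1383956 on the plus strand, with capitals as above.
SDHB: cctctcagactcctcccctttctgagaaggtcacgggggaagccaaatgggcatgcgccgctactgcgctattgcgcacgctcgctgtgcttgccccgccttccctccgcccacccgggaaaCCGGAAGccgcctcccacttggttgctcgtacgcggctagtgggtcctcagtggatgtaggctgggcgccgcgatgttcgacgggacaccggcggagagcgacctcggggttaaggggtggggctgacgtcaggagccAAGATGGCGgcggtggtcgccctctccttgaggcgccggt
NDUFS7: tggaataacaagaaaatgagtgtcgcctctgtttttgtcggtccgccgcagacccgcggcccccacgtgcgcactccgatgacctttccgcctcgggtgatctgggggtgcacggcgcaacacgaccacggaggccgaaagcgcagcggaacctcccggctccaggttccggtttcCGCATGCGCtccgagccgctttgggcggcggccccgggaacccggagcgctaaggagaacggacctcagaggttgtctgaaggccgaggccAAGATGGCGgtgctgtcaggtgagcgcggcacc
Both were rich in CpG dinucleotides, with 30 in SDHB and 34 in NDUFS7, and both held the YY1 letters AAGATGGCG just after the start. SDHB also held an ETS match and NDUFS7 an NRF1 match, both before the start.

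In complex III, UQCR11, a small subunit, was the widest in JMJD3 KO cells and had the highest ratio, with 1493 bp against 1526 bp in parental cells (log2 ratio -0.03). UQCRQ, which helps hold the catalytic core, was the narrowest, with 259 bp in JMJD3 KO cells and 622 bp in parental cells. UQCRB, a ubiquinone-binding subunit, had the lowest ratio, with 475 bp in JMJD3 KO cells and 1832 bp in parental cells (log2 ratio -1.95). The iron-sulphur subunit UQCRFS1 had 1080 bp in JMJD3 KO cells and 1615 bp in parental cells. The core proteins UQCRC1 and UQCRC2 had 515 and 1454 bp in JMJD3 KO cells, against 1102 and 2073 bp in parental cells.

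In complex IV, no gene was wider in JMJD3 KO cells. COX6B1, a subunit facing the intermembrane space, had the lowest ratio of the 155 genes. It had 1 peak of 173 bp in JMJD3 KO cells at chr19:36139546-36139718, against 4 peaks and 1811 bp in parental cells (log2 ratio -3.39), and 0.617% of all symbols had a lower ratio. The knockout peak lay inside the parental peak of 977 bp at chr19:36139252-36140228, centred 615 bp from the TSS, and the other 3 parental peaks had no overlap in the knockout list. COX5A, which can bind thyroid hormone, had 222 bp in JMJD3 KO cells and 1679 bp in parental cells (log2 ratio -2.92). COX5B was the widest in JMJD3 KO cells, with 1066 bp against 1840 bp in parental cells, and COX6A1 had the highest ratio, with 1041 bp in JMJD3 KO cells and 1366 bp in parental cells. The 6 ubiquitous isoforms had a median log2 ratio of -1.47, from -3.39 in COX6B1 to -0.39 in COX6A1.

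COX4I1, the ubiquitous form of the largest nuclear-encoded subunit, had 388 bp in JMJD3 KO cells and 1312 bp in parental cells. COX7A2 had 548 bp in JMJD3 KO cells and 1237 bp in parental cells, and COX8A had 774 bp in JMJD3 KO cells and 1200 bp in parental cells. The nearest knockout peak of COX8A was centred 1135 bp from the TSS, while the nearest parental peak was centred 180 bp from it.

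**Figure D3:**
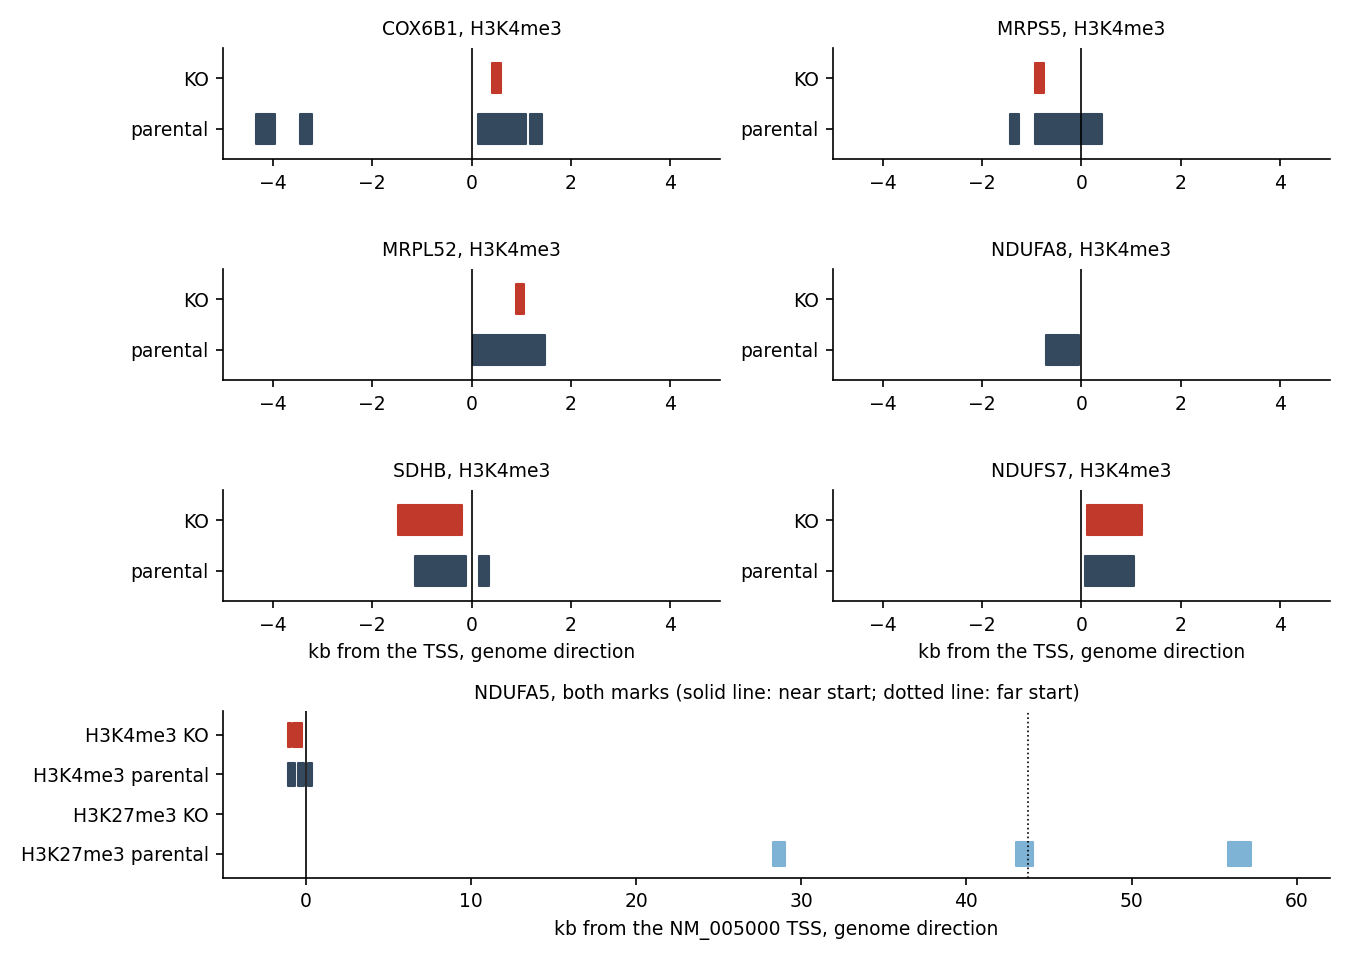
H3K4me3 peaks within 5 kb of the TSS of 6 genes, and both marks around NDUFA5, in kb along the genome from the TSS, JMJD3 KO above parental. Boxes are called peaks drawn to scale and vertical lines are starts; COX6B1, MRPS5 and MRPL52 each keep 1 short knockout peak, NDUFA8 keeps none, and SDHB and NDUFS7 keep wide ones.

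The promoter of COX6B1 is shown as that of the gene with the lowest ratio, at chr19:35648073-35648372 on the plus strand of GRCh38.p14, with capitals as above.
COX6B1: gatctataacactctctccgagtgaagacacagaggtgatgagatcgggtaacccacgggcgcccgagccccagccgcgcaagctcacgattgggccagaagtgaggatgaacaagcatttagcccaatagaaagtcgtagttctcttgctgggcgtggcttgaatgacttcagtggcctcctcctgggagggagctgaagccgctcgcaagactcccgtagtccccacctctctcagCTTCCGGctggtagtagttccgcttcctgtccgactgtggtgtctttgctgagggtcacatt
It had 56.7% G or C, 16 CpG dinucleotides and 1 ETS match, on the reverse strand just before the start, and 2 matches to CCAAT, the letters of the CCAAT box.

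In complex V, ATP5A1, the alpha subunit of the catalytic head, was the widest in JMJD3 KO cells, with 2030 bp against 2988 bp in parental cells. ATP5B, the catalytic beta subunit, had 1103 bp in JMJD3 KO cells and 2141 bp in parental cells. ATP5C1, the central stalk's gamma subunit, had the highest ratio, with 783 bp in JMJD3 KO cells and 857 bp in parental cells (log2 ratio -0.13). ATP5J2, a membrane subunit, was the narrowest, with 665 bp in JMJD3 KO cells and 1041 bp in parental cells. ATP5J, coupling factor 6 of the side stalk, had the lowest ratio of the complex, with 1215 bp in JMJD3 KO cells and 2998 bp in parental cells (log2 ratio -1.30). Its ratio was milder than the lowest of complexes I, III and IV. Complex V, like complexes II and III, had no gene at most 25% as wide in JMJD3 KO cells.

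In the large ribosomal subunit 3 genes were wider in JMJD3 KO cells, and all 3 were narrower there under another promoter rule. MRPL19 had 892 bp in JMJD3 KO cells and 729 bp in parental cells (log2 ratio 0.29), the highest ratio of the 155 genes, but the difference, knockout minus parental, was -79 bp with a window of 1 kb. MRPL10 had 1282 bp in JMJD3 KO cells and 1111 bp in parental cells (log2 ratio 0.21), and the difference was -65 bp with a window of 10 kb. MRPL32 had 2602 bp in 6 peaks in JMJD3 KO cells and 2282 bp in 3 peaks in parental cells (log2 ratio 0.19), and was the widest of the subunit in JMJD3 KO cells. With a window of 1 kb its difference was -890 bp. At the other end, MRPL28 had 146 bp in JMJD3 KO cells and 651 bp in parental cells. MRPL52 had the lowest ratio, with a peak of 170 bp in JMJD3 KO cells at chr14:23299985-23300154 inside a parental peak of 1456 bp at chr14:23299121-23300576 (log2 ratio -3.10).

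In the small ribosomal subunit no gene was wider in JMJD3 KO cells. MRPS18B was the widest there, with 1817 bp in 6 peaks against 3228 bp in 3 peaks in parental cells. MRPS17 had the highest ratio, with 775 bp in JMJD3 KO cells and 985 bp in parental cells (log2 ratio -0.35). MRPS27 was the narrowest, with 146 bp in JMJD3 KO cells and 753 bp in parental cells. MRPS5, a homologue of a bacterial ribosomal protein, had the lowest ratio, with 178 bp in JMJD3 KO cells and 1526 bp in parental cells (log2 ratio -3.10). Its parental peak of 1351 bp spanned the TSS at chr2:95786827-95788177, and the knockout peak lay at chr2:95786825-95787002, at the outer end of it.

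A list of 14 core subunits, 7 of complex I, SDHA, SDHB, UQCRC1, UQCRC2, UQCRFS1, ATP5A1 and ATP5B, was marked in full in both genotypes. Their median log2 ratio was -0.57, against -0.87 for all 148 subunit genes marked in both lists, while the 7 of complex I had -1.10. Of the 14, 5 had a knockout width at most 50% of the parental width (35.7%, against 45.9% of subunit genes and 50.6% of all symbols). NDUFS1, the largest core subunit of complex I, had 1780 bp in JMJD3 KO cells and 3907 bp in parental cells. NDUFV1, which binds NADH, had 820 bp in JMJD3 KO cells and 1069 bp in parental cells. NDUFS3 and NDUFS8 had 596 and 492 bp in JMJD3 KO cells, against 1275 and 1280 bp in parental cells.

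The knockout peaks were mostly pieces of parental peaks. The group had 388 distinct promoter peaks in JMJD3 KO cells with a median width of 258.5 bp, and 464 in parental cells with a median width of 452.5 bp. Of the knockout peaks, 93.3% overlapped a parental peak by at least 1 bp (interval 90.4 to 95.4%), against 91.2% of the promoter peaks of all genes. Of the parental peaks, 63.4% overlapped a knockout peak (interval 58.9 to 67.6%), against 55.8% for all genes. Fewer peaks in JMJD3 KO cells than in parental cells were seen for 74 of the 155 genes, equal numbers for 42 and more for 39 (25.2%, against 24.6% of all symbols). A single promoter peak was found at 34 genes in JMJD3 KO cells (21.9%, against 23.7% of all symbols) and at 13 genes in parental cells (8.39%, against 11.5%).

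Peaks lay beside the start rather than over it. Only 3 of the 155 genes marked in JMJD3 KO cells had a peak spanning a TSS (1.94%, against 9.86% of all symbols marked there), and 15 of the 159 marked in parental cells did (9.43%, against 24.1%). Both counts include the antisense RNA NDUFB2-AS1, and the parental count includes the read-through NDUFC2-KCTD14 beside NDUFC2, with the same peaks. Among subunit genes alone it was 2 of 148 in JMJD3 KO cells (1.35%) and 13 of 151 in parental cells (8.61%). To place peaks in the direction of transcription, 124 subunit genes with 1 TSS position and a strand in RefSeq were used; the strand came from GRCh38.p14 and was taken to be the same in hg19, which was not tested. Of these, 119 were marked in JMJD3 KO cells and 122 in parental cells.

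The share of these genes with a peak over a given position had an upstream and a downstream maximum. Downstream it reached 68.9% at 600 to 700 bp in JMJD3 KO cells and 95.1% at 500 to 600 bp in parental cells. Upstream it reached 35.3% at 400 to 500 bp before the start in JMJD3 KO cells and 66.4% at 300 to 400 bp before the start in parental cells. Within 100 bp of the start the lowest share was 9.24% in JMJD3 KO cells and 18.9% in parental cells. Over all symbols handled in the same way, the downstream maximum was 56% in JMJD3 KO cells and 78.1% in parental cells, and the upstream maximum 31.2% in JMJD3 KO cells and 54.1% in parental cells. The lowest share of all symbols near the start was 10.1% in JMJD3 KO cells and 27% in parental cells.

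**Figure D4:**
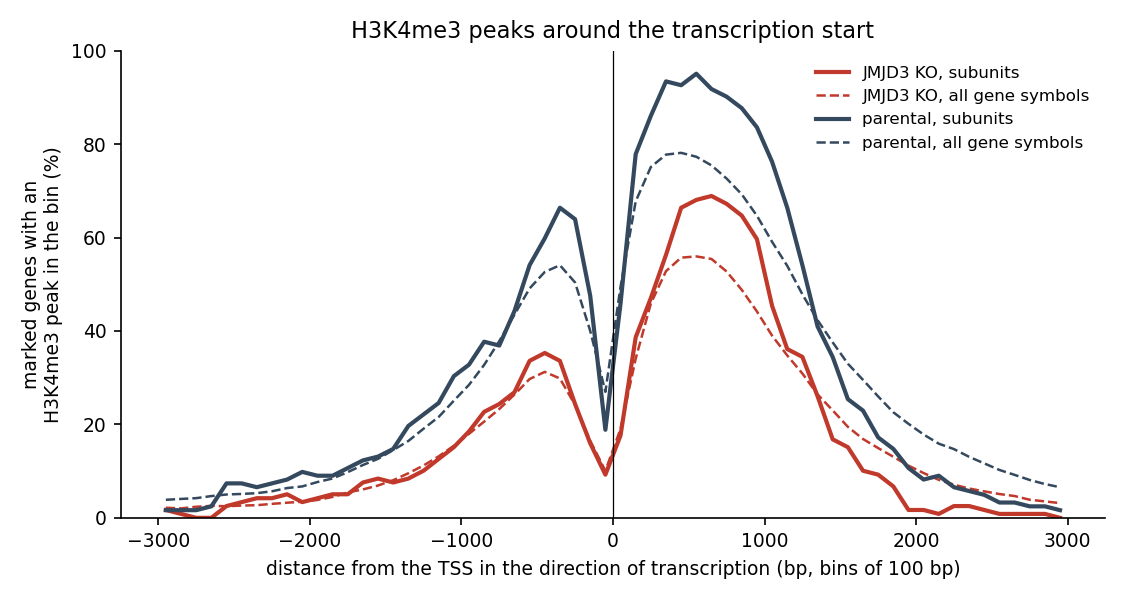
Share of marked genes with an H3K4me3 peak in each bin of 100 bp around the TSS, in the direction of transcription. Red is JMJD3 KO and dark blue parental, solid lines are subunit genes and dashed lines all symbols; the curves dip at the start, and the downstream maximum of subunit genes is 68.9% in JMJD3 KO and 95.1% in parental cells.

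Peaks lay on both sides of the start in 56.3% of the marked subunit genes in JMJD3 KO cells and in 82.0% in parental cells. They lay only downstream in 46 genes in JMJD3 KO cells and in 22 in parental cells, and only upstream in 6 genes in JMJD3 KO cells and in 0 in parental cells. All symbols had the same pattern: peaks on both sides in 50% in JMJD3 KO cells and 70.9% in parental cells, and only downstream in 40.9% in JMJD3 KO cells and 22.9% in parental cells. The subunit genes with peaks only downstream were 38.7% in JMJD3 KO cells and 18% in parental cells. SDHB and MRPS5 were described above with knockout peaks on 1 side of the start. Where both sides had peaks and none spanned the start, the median gap between the nearest edges was 637 bp in JMJD3 KO cells and 353 bp in parental cells. The medians of all symbols were 699 bp in JMJD3 KO cells and 365 bp in parental cells.

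Many of these promoters were shared with another gene. Of the 155 subunit genes, 58 had the TSS of another protein-coding gene within 1 kb (37.4%, interval 30.2 to 45.3%), against 15.2% of all symbols with an NM transcript. These symbols include many unmarked ones. Among genes marked in both lists, 57 subunit genes had such a neighbour and 91 did not. The counts of all genes marked in both lists were 1976 with and 7711 without, so the contrast was smaller there. The promoters with such a neighbour were wider, with medians of 1072 bp in JMJD3 KO cells and 2030 bp in parental cells, than those without, with 780 bp in JMJD3 KO cells and 1490 bp in parental cells. All genes showed the same contrast, with 1064 bp in JMJD3 KO cells and 2120 bp in parental cells with a neighbour, and 759 bp in JMJD3 KO cells and 1588 bp in parental cells without. The median log2 ratios of the subunit genes were -0.85 with a neighbour and -0.89 without. Those of all genes were -1.02 with a neighbour and -1.0045 without. Peaks between close starts count for both genes, so such pairs are not independent.

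Pairs of members also shared promoters. MRPL46 of the large and MRPS11 of the small ribosomal subunit have starts 50 bp apart and shared 1263 bp of peaks in JMJD3 KO cells and 2090 bp in parental cells. MRPL47 and the complex I gene NDUFB5 have starts 140 bp apart and shared 1141 bp in JMJD3 KO cells and 2030 bp in parental cells. NDUFS6 of complex I and MRPL36 had the same peaks, with 1217 bp in JMJD3 KO cells and 2853 bp in parental cells. Other close neighbours were EMC8 at 24 bp from COX4I1, LRRC46 at 85 bp from MRPL10 and FAU, which encodes a cytosolic ribosomal protein, at 43 bp from MRPL49. The start of ATP5J lay 637 bp from that of GABPA, which encodes the DNA-binding subunit of GABP, an ETS factor known to regulate genes of the respiratory chain. The same 4 knockout and 4 parental peaks were counted for ATP5J and GABPA.

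The promoter of ATP5J is shown for this neighbour, and that of MRPL52 for the lowest ratio of the large ribosomal subunit. They lie in GRCh38.p14 at chr21:25735005-25735304 on the minus strand, where RefSeq lists ATP5J as ATP5PF, and at chr14:22829637-22829936 on the plus strand, with capitals as above.
ATP5J: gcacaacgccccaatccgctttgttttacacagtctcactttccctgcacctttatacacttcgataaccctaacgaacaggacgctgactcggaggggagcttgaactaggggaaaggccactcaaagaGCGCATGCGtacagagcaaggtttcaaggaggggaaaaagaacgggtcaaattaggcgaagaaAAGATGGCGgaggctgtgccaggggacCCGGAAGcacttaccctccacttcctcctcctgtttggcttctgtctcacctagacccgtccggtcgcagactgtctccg
MRPL52: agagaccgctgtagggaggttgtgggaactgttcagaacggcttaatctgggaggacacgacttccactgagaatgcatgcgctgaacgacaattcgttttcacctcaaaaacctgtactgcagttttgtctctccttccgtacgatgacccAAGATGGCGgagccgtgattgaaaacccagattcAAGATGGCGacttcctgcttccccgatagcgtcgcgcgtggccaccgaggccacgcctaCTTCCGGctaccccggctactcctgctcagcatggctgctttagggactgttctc
ATP5J held 1 match each to the NRF1, ETS and YY1 letters. MRPL52 held 2 YY1 matches before the start and 1 ETS match on the reverse strand near it.

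Of the 155 subunit genes, 132 were matched to a RefSeq promoter, 11 of them by an older symbol, and 1 promoter was taken for each gene, the first listed. For NDUFA5 this was the promoter of a start far from its H3K4me3, described below. NDUFA5 was therefore counted without an NRF1 match, although the promoter of its near start has one. The letters CCGGAAG of ETS factors were found in 35.6% of them (interval 28.0 to 44.1%), against 10.7% of all 27305 promoters and 21.8% of the promoters of 8540 genes with H3K4me3 in both lists. These are promoters of marked genes, and whether a peak lay at the promoter taken was not tested. The NRF1 letters GCGCANGCG were found in 25% (interval 18.4 to 33.0%), against 8.05% of all promoters and 16.5% of those of marked genes. NRF1 is a factor known for activating respiratory chain genes, and its motif can match on both strands at the same place. The YY1 letters AAGATGGCG were found in 15.9% (interval 10.6 to 23.1%), against 1.85% of all promoters and 4.59% of those of marked genes. At least 1 of the 3 motifs was found in 81 of the 132 promoters (61.4%), against 18.3% of all promoters and 37.3% of those of marked genes. The promoters of 66 cytosolic ribosomal protein genes were close for ETS, with 34.8%, and had 10.6% for NRF1, 9.09% for YY1 and 51.5% for at least 1 of the 3.

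The other motifs were not more common than in all promoters. CCAAT was found in 31.1% of the 132 promoters, against 35.7% of all and 37.8% of those of genes with H3K4me3 in both lists. TATAAA, the TATA box, was found in 6.82%, against 12% of all and 5.26% of those of genes with H3K4me3 in both lists. The median promoter had 61.0% G or C in the subunit genes, 58.3% in all promoters and 65.3% in those of genes with H3K4me3 in both lists. Of 22 YY1 matches in subunit promoters, 17 began after the start (77.3%), and these 17 were on the strand of the gene. Among all promoters 61.3% of YY1 matches began after the start. The median log2 width ratio was -0.72 for subunit genes with an NRF1 match and -1.02 without, -1.02 with an ETS match and -0.81 without, and -0.76 with a YY1 match and -0.96 without. A match is a stretch of letters and not a measured binding site, and these ratios have no test.

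**Figure D5:**
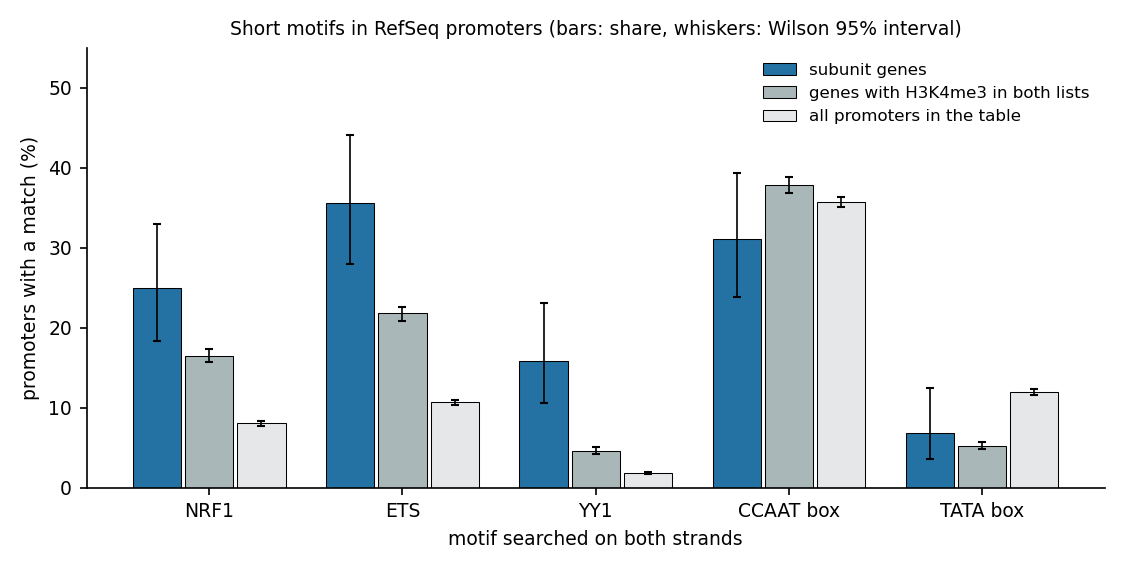
Share in % of RefSeq promoters with a match to each of 5 short motifs, for 132 subunit genes, for genes with H3K4me3 in both lists and for all promoters. Bars are shares and whiskers Wilson 95% intervals; the NRF1, ETS and YY1 shares are above those of both other sets in subunit genes, at 25%, 35.6% and 15.9%.

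The 3 subunit genes on chromosome X had low ratios. NDUFA1, an accessory subunit of complex I, had 386 bp in 2 peaks in JMJD3 KO cells and 2557 bp in 7 peaks in parental cells (log2 ratio -2.73). NDUFB11 had 623 bp in JMJD3 KO cells and 1797 bp in parental cells (log2 ratio -1.53). COX7B had 359 bp in JMJD3 KO cells, in a single peak centred 4555 bp from its TSS, and 1545 bp in parental cells, with the nearest peak centred 284 bp from it (log2 ratio -2.11). The median log2 ratio of all X-linked symbols marked in both lists was -1.27, and 46.3% of the X-linked symbols marked in parental cells were unmarked in JMJD3 KO cells. Autosomal subunit genes had a median of -0.85, against -1.0045 for all autosomal symbols.

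On chromosome 5 from 50 to 140 Mb, 34.8% of the symbols marked in parental cells were unmarked in JMJD3 KO cells. Of the 5 subunit genes there, MRPS36 was the unmarked one, and COX7C, MRPS27, NDUFS4 and UQCRQ had a median log2 ratio of -1.70, against -1.41 for all symbols of the region. Outside this region and chromosome X, the unmarked subunit genes in JMJD3 KO cells that were marked in parental cells were NDUFA8 and MRPL11. Other regions were also looked at. On chromosome 12 from 10 to 30 Mb, 7.69% of symbols were marked in parental cells only, and MRPS35 had a log2 ratio of -2.26. On chromosome 13 from 20 to 40 Mb the share was 12%, and MRPL57 had a log2 ratio of -0.57. The regions looked at on chromosomes 14 and 17 held no subunit gene.

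H3K27me3 was nearly absent from these promoters. In JMJD3 KO cells 0 of 166 genes had a promoter peak, which allows a share of up to 1.81%, and in parental cells 1 had one. Over all symbols, 4.97% had promoter H3K27me3 in JMJD3 KO cells and 5.11% in parental cells. The marked gene was NDUFA5, an accessory subunit of complex I, with no peak in JMJD3 KO cells and a peak of 1045 bp in parental cells at chr7:123240944-123241988 (hg19).

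The parental H3K27me3 peak of NDUFA5 spanned a start that lies far from its H3K4me3. The files give NDUFA5 a far start at position 123241705, used by 2 of its transcripts, NM_001291304 and NR_111926. The start of NM_005000 lies 43.7 kb away at 123197958, and 8 transcripts start there or close by. H3K4me3 was found only at the near starts, with 725 bp in 2 peaks in JMJD3 KO cells and 1068 bp in 3 peaks in parental cells. The far start has ASB15, an ankyrin repeat gene, starting 215 bp from it. Parental H3K27me3 peaks of 692 and 1365 bp lay on either side, 15105 and 12783 bp from the far start, and no H3K27me3 peak was centred within 20 kb of any NDUFA5 start in JMJD3 KO cells.

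The promoters of both starts of NDUFA5 are shown because the marks were found at different ones. RefSeq lists 3 promoters for the gene in GRCh38.p14, all on the minus strand. The most distant of them are 43.8 kb apart, at chr7:123601602-123601901 for the far start and chr7:123557769-123558068 for the near start, with capitals as above.
NDUFA5 far start: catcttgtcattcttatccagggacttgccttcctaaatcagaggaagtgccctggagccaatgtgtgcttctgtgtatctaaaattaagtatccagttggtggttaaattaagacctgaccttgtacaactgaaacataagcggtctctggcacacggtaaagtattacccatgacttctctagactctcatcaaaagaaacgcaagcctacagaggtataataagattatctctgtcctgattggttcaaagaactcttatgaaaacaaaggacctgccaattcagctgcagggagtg
NDUFA5 near start: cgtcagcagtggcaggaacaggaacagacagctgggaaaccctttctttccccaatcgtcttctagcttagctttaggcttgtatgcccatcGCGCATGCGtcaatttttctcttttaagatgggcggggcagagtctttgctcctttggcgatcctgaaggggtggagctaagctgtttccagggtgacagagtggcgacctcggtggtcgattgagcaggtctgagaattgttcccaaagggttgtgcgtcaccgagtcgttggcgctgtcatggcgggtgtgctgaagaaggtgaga
The far promoter had 42.0% G or C and 3 CpG dinucleotides, and it held none of the 3 motifs in capitals. The near promoter had 54.0% G or C, 15 CpG dinucleotides and 1 NRF1 match.

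Within 20 kb of a start, the limit of the files, 4 genes of the group had H3K27me3 in JMJD3 KO cells (2.41%, against 13% of all symbols) and 6 in parental cells (3.61%, against 12.9%). The peak near MRPL9 was shared, with 2395 bp in JMJD3 KO cells and 1370 bp in parental cells, as was that near NDUFA9, with 1904 bp in JMJD3 KO cells and 1605 bp in parental cells. Near NDUFA10 the peaks did not overlap, with 3716 bp in JMJD3 KO cells and 909 bp in parental cells. UQCRB had peaks of 495 and 2195 bp in JMJD3 KO cells and none in parental cells. ATP5E and MRPL10 had peaks of 836 and 956 bp in parental cells and none in JMJD3 KO cells. The centres of these peaks lay between 8716 and 19464 bp from the starts, and most also lay within 20 kb of other genes.

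Other nuclear genes of mitochondrial function were mostly marked in both genotypes too. Over all symbols, 62.9% were marked in JMJD3 KO cells and 71.3% in parental cells. Of all symbols marked in parental cells, 13.2% were unmarked in JMJD3 KO cells. Of 37 assembly factors, which build the complexes, 35 were marked in JMJD3 KO cells and 37 in parental cells, and the genes marked in parental cells only were NUBPL and ATPAF1, with 993 and 1176 bp there. Of 11 listed genes of mitochondrial DNA upkeep and transcription with a line, 10 were marked in JMJD3 KO cells and 11 in parental cells. The exception was POLRMT, the mitochondrial RNA polymerase, with 1453 bp in parental cells. Of 21 genes of protein import, 20 were marked in JMJD3 KO cells and 21 in parental cells, TIMM22 having a peak of 306 bp in parental cells only. The shares marked in parental cells only were 5.41% for assembly factors, 9.09% for DNA upkeep and transcription and 4.76% for import. All 12 translation factors and all 13 citric acid cycle genes were marked in both genotypes, as were 11 of 11 subunits whose names fall outside the rule, such as CYC1 and DAP3. These lists are not fully separate from the group. TIMM8B, of import, starts 25 bp from SDHD, and C10orf2, of DNA upkeep, starts 20 bp from MRPL43. Each had the same widths as that neighbour in both genotypes. HSPD1 and HSPE1, both of import, also had the same widths as each other.

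The medians of these lists lay near that of all symbols. The median log2 ratio was -1.10 for assembly factors, -1.13 for DNA upkeep and transcription, -1.02 for translation factors, -0.85 for the citric acid cycle, -0.98 for import and -0.99 for the other subunits. The lowest ratio among these genes was that of COX15, a haem A synthase needed to build complex IV, with 153 bp in JMJD3 KO cells and 2366 bp in parental cells (log2 ratio -3.95). NDUFAF6, an assembly factor of complex I, was wider in JMJD3 KO cells, with 773 bp against 612 bp in parental cells. So were SURF1, of complex IV assembly, with 1302 bp against 1247 bp in parental cells, and UQCC1, of complex III assembly, with 635 bp against 627 bp in parental cells. MTRF1L, a mitochondrial release factor, had promoter H3K27me3 of 1951 bp in parental cells and none in JMJD3 KO cells, beside H3K4me3 of 515 bp in JMJD3 KO cells and 2173 bp in parental cells.

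Of 10 regulators of mitochondrial genes, 9 were marked by H3K4me3 in both genotypes, with a median log2 ratio of -0.84. That is 90%, against 62.9% of all symbols in JMJD3 KO cells and 71.3% in parental cells. NRF1 had 1050 bp in JMJD3 KO cells and 1883 bp in parental cells, YY1 had 1476 bp in JMJD3 KO cells and 3141 bp in parental cells, and GABPB1, a partner of GABPA, had 2755 bp in JMJD3 KO cells and 4576 bp in parental cells. TFAM, which packs mitochondrial DNA, had 770 bp in JMJD3 KO cells and 2369 bp in parental cells. PPARGC1A, a coactivator of mitochondrial biogenesis induced in muscle and brown fat, had no promoter H3K4me3 in either genotype and had H3K27me3 of 1870 bp in JMJD3 KO cells and 1924 bp in parental cells. Its relatives PPARGC1B and PPRC1 had H3K4me3 of 1692 and 1632 bp in JMJD3 KO cells, against 2409 and 2041 bp in parental cells, and no H3K27me3.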

How the data were processed

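The 4 deposited files pair peaks with RefSeq transcripts and hold, per the file headers, a chromosome, start, end, peak name, transcript, symbol, distance and score. Per the submitters' processing notes, BWA 0.7.10, SAMtools, MACS2 2.1.1 and hg19 were used; no source used here gives their settings or the use of inputs. The distance runs from the TSS to the centre of the peak, by a test on the values, and stays under 20 kb. The deposited score follows from that distance alone (error at most 5e-13) and was not used as a measure of strength. Depth is unknown, so its part in the number and width of peaks was not tested.

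Coordinates are given from 1, reading the deposited starts as counted from 0. Python 3.11.15, pandas 2.3.3, numpy 2.4.6, SciPy 1.17.1 and matplotlib 3.10.9 were used, and the state counts were checked on simulated lists. The count of 0 was given the limit of 3 counts. The members, gene lists and motifs were chosen with earlier results of these data known, so no pattern here is independent support. Named genes of the group are those whose state differs between lists or is unmarked, those with promoter H3K27me3, the widest, narrowest, highest-ratio and lowest-ratio gene of each group, those wider in the knockout list, X-linked genes, core subunits and isoform pairs; COX5A, the genes named from the other mitochondrial lists, the genes sharing promoters and the regulators with values were named after their values were seen. A subunit gene and a marker gene that these rules name are not reported here. Promoter sequences come from RefSeq, GRCh38.p14; 112 of the 132 matched subunit genes have 1 promoter there.

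Alternatives tried were promoter windows of 1 and 10 kb, spanning peaks only, nearest gene only, peaks of at least 300 bp, lists of equal length, genes with 1 TSS position and an overlap of 50%.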

Additional observations from a re-analysis of the deposited data

How the results depend on the processing

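The median log2 width ratio of the genes lay between -1.05 and -0.81 under every alternative that gave a median; with spanning peaks only, 3 genes were marked in both lists and no median was taken. Genes marked in the parental list only numbered 12 with a window of 1 kb, 7 with 10 kb, 12 with spanning peaks only, 8 with peaks assigned to their nearest gene and 35 with peaks of at least 300 bp, against 4 in the report; the last alternative removes short peaks, and knockout peaks were shorter. With spanning peaks only, 3 genes were marked in JMJD3 KO cells and 15 in parental cells. With the nearest gene only, 1 gene, MRPL9, was marked in the knockout list only. With peaks of at least 300 bp, 1 gene had a spanning knockout peak. H3K27me3 was found at 2 parental promoters with a window of 10 kb and at 0 among genes with 1 TSS position. At an overlap of 50%, 86.6% of knockout and 37.7% of parental promoter peaks were shared. Of the 6 genes wider in JMJD3 KO cells, the difference turned negative for MRPL10 (-65 bp at 10 kb, -235 bp with peaks of at least 300 bp), MRPL19 (-79 bp at 1 kb and again at 300 bp), MRPL32 (-890 bp at 1 kb), NDUFB3 (-155 bp, nearest gene) and SDHB (-86 bp at 10 kb), while that of NDUFS7 stayed at 124 bp except with spanning peaks only, where it had no peak in either list. The cause of these shifts was not tested. The per-gene differences were added after the data were seen. No paired analysis was possible because each group holds 1 library with no replicate number. Peak lists without counts limit all values to the extent of called peaks.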
